A study of Homo sapiens with 8 samples.

Results

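The genes described here are the zinc finger genes of human chromosome 19, taken as the protein-coding genes on that chromosome whose symbol is ZNF followed by digits and at most 1 letter. The annotation held 247 such genes, and 224 of them averaged at least 10 normalized counts over the 8 libraries. These 224 members are part of 17194 genes that passed the same filter, out of 58884 in the deposited table. The other 23 matching genes lay under the filter. The 3 members just inside it were ZNF492, ZNF100 and ZNF66, with means of 16.4, 16.8 and 17.7 normalized counts, and the 3 genes just outside it were ZNF20, ZNF114 and ZNF223, with 9.96, 9.79 and 8.94.

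C4-2 is a prostate cancer cell line derived from LNCaP cells that the labels class as castration-resistant prostate cancer (CRPC). In 1 arm, C4-2 cells received 1 µM DTHIB (also named E12), a small-molecule inhibitor of the heat shock transcription factor HSF1, and in the other arm they received the solvent DMSO alone. Both arms were kept for 48 hours in RPMI 1640 medium with 10% fetal bovine serum (FBS), and polyadenylated RNA was sequenced from 4 libraries of each. The design holds 1 cell line, 1 dose and 1 time, and the labels do not say whether the 4 libraries of an arm came from separate cultures, so p-values measure the spread between libraries, which may be technical.

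C2H2 zinc finger proteins bind DNA through an array of short repeated domains, each built around a zinc ion and reading a few bases. Many carry a KRAB domain at the amino end, which binds the corepressor TRIM28 and through it brings the histone methyltransferase SETDB1 and the HP1 proteins, so that the bound DNA is packed into silent chromatin. The family has grown by tandem duplication, so most of its chromosome 19 genes lie beside close relatives in clusters, and many of the proteins recognise transposable elements.

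The libraries held 27229291 to 29159387 reads assigned to genes in the DTHIB arm and 29499458 to 30926053 in the DMSO arm, and no pair of libraries agreed within sampling noise. All 8 luminal prostate markers were expressed, with summed levels of 240010.0 to 247176 normalized counts in DTHIB libraries and 196277 to 200577 in DMSO libraries. KLK3 made up much of these sums, with means of 93753 in DTHIB and 66682.5 in DMSO libraries. The markers did not share one direction: 5 were higher and 3 were lower. The lower ones were KRT8, KRT18 and HOXB13, at log2 fold changes of -0.35, -0.11 and -0.22. Of the 3 basal markers, KRT5 and TP63 had 2 and 4 reads in all libraries together and KRT14 had 173. Markers listed for stroma were detected: COL1A1 had 9028 reads, VIM 6343, ACTA2 473 and COL3A1 67. Of these, COL1A1 was higher in DTHIB cells, ACTA2 was lower and VIM did not pass. Among neuroendocrine markers, ENO2 had 2262 reads, SYP 542, NCAM1 101 and CHGA 2. SYP was higher, and ENO2 and NCAM1 were lower. Of the 4 blood markers, PTPRC and CD3E had 8 reads and 1 read, CD68 had 107 and LYZ had 83, and LYZ was lower in DTHIB cells (log2 fold change -1.73, limma adjusted p = 0.000172). Of the 17194 tested genes, 31.0% were higher in DTHIB cells and 33.7% lower, 64.6% in all, at a Benjamini-Hochberg adjusted p under 0.05 in limma. The median log2 fold change over all tested genes was -0.0051.

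Among the 224 zinc finger members, 82 were higher in DTHIB cells, 49 were lower and 93 did not pass the test. The shares were 36.6% higher and 21.9% lower, beside the 31.0% and 33.7% of all tested genes. Members had a median log2 fold change of 0.086, with an interquartile range of -0.14 to 0.29. Most changes were small: 2 members were at least 2-fold higher in DTHIB cells and 7 were at least 2-fold lower. The 4 DTHIB values lay above all 4 DMSO values for 70 members and below them for 43, and the groups overlapped for 111. Over all tested genes, 27.1% lay wholly above and 30.8% wholly below. Since whole cultures were measured, fewer cells that express a gene and less RNA per cell cannot be told apart. Exons of 124 members overlap those of another gene, and the labels name no strand setting for the counting, so their values may include reads of the partner. With edgeR on reads recovered from the table, 85 members were higher and 46 lower, beside 32.3% and 32.4% of all tested genes (64.7% in all). With DESeq2 on those reads, 73 were higher and 44 lower, beside 29.5% and 30.4% (59.9% in all). In the authors' deposited table, 61 members were higher and 44 lower at the same adjusted p, beside 26.8% and 30.6% of all tested genes (57.4% in all).

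Zinc finger genes on other chromosomes and other genes on chromosome 19 give the setting. Of 226 ZNF-numbered genes elsewhere in the genome, 85 (37.6%) were higher and 57 (25.2%) lower, with a median of 0.058. Of 760 other protein-coding genes of chromosome 19, 256 (33.7%) were higher and 259 (34.1%) lower, with a median of 0.012. A further 15 chromosome 19 zinc finger genes under other names, such as PEG3 and MZF1, included 4 (26.7%) that were higher and 3 (20%) that were lower. Over all tested genes, 31.0% were higher and 33.7% lower. Over the 13162 tested protein-coding genes, the shares were 29.1% and 40.1%.

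The members were not spread evenly. Ordered by start, 213 of them fell into 8 clusters of at least 5 members whose starts lay under 1 Mb from the next, named A to H here from the start of the chromosome to its end, and 11 lay in smaller runs. Clusters A and B lie at 7.1 to 9.8 Mb and 11.5 to 12.6 Mb, C at 19.7 to 24.1 Mb in band p12, D and E at 34.7 to 35.0 Mb and 36.2 to 37.8 Mb, and F, G and H at 43.5 to 45.1 Mb, 51.6 to 53.6 Mb and 55.5 to 58.5 Mb (GRCh38).

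Cluster C, next to the centromere, held all 7 members that were at least 2-fold lower in DTHIB cells: ZNF724, ZNF66, ZNF257, ZNF90, ZNF492, ZNF726 and ZNF93. Of its 31 members, 17 (54.8%) were lower in DTHIB cells, 4 (12.9%) were higher and 10 did not pass, with a median log2 fold change of -0.47. Of the 193 members outside it, 32 (16.6%) were lower, 78 (40.4%) were higher and 83 did not pass, with a median of 0.12. In the other clusters the medians lay between -0.027 in cluster G and 0.19 in cluster H, and no other protein-coding gene that passed the filter lay within cluster C. The neighbouring noncoding genes and pseudogenes there did not share one direction: 7 of 19 were lower, 4 were higher, and their median was -0.026. Over all tested genes, 33.7% were lower and 31.0% higher. Some of these neighbours overlap exons of members, such as an antisense gene at -1.38 with ZNF90 and ZNF56P at 0.67 with ZNF506. They are therefore not independent of the members.

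**Figure D1:**
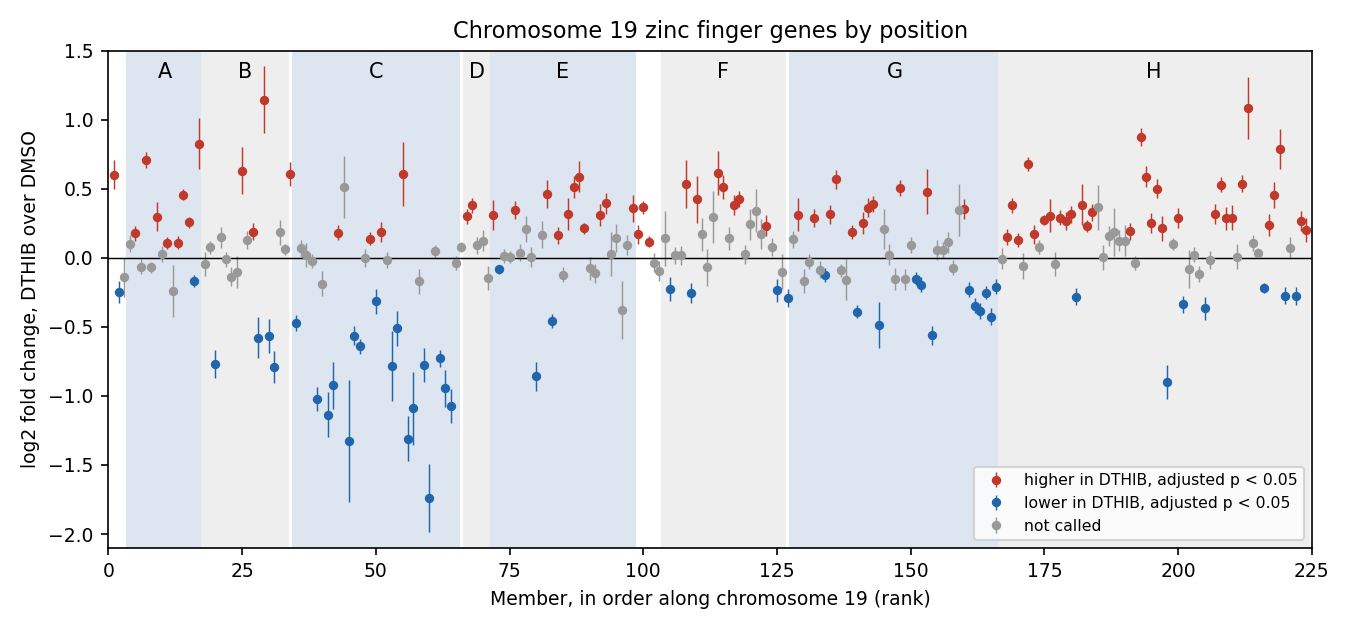
Log2 fold change, DTHIB over DMSO (y axis), of each of the 224 members in order along chromosome 19 (x axis, rank), with bars for the standard error, red for members called higher, blue for those called lower and grey for those not called. Shaded bands mark clusters A to H; 17 of 31 members of cluster C are blue, against 32 of 193 elsewhere.

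The difference was present in each library. Taking each member's log2 value relative to its DMSO mean, the median over cluster C was -0.43, -0.46, -0.42 and -0.37 in the 4 DTHIB libraries, against 0.016, 0.082, -0.022 and -0.054 in the 4 DMSO libraries. No DTHIB library came within the DMSO range. For cluster H the same medians were 0.16, 0.22, 0.20 and 0.17 in DTHIB libraries, against -0.014, -9.2e-05, -0.016 and 0.016 in DMSO libraries, again with no overlap. In cluster G, the DTHIB medians of -0.0081, 0.024, -0.016 and -0.030 lay inside the DMSO range of -0.050 to 0.058.

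**Figure D2:**
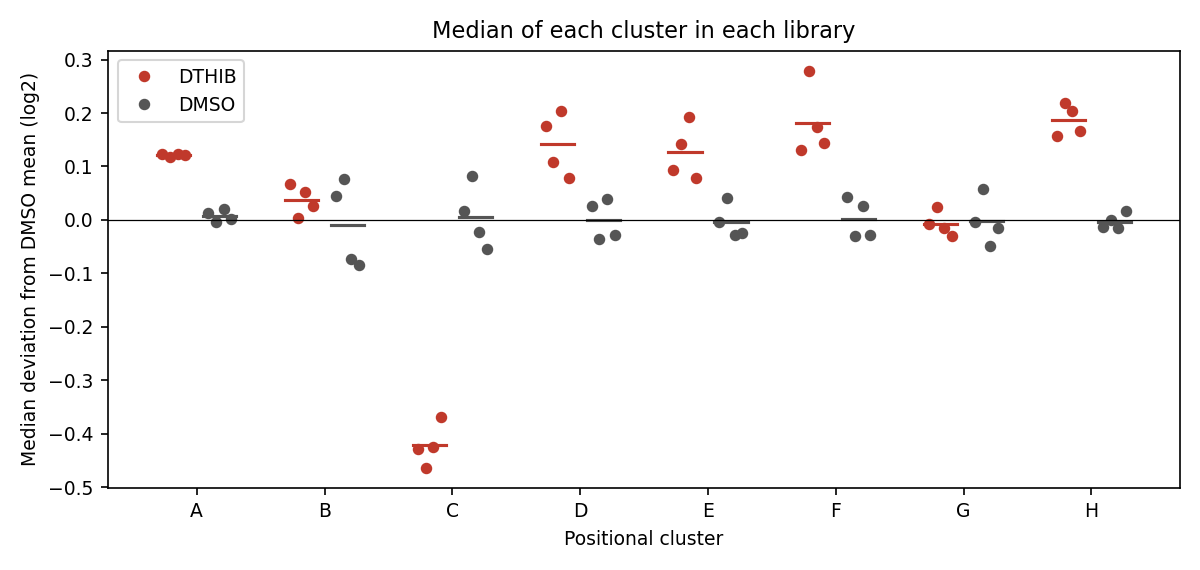
Median deviation of the members of each cluster from their DMSO mean (y axis, log2) in each of the 4 DTHIB libraries (red, left) and 4 DMSO libraries (grey, right), with a line at the mean of the 4. Cluster C lies between -0.46 and -0.37 in DTHIB libraries, and cluster H between 0.16 and 0.22.

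Level moved with this result. Cluster C members with a mean of at least 100 normalized counts numbered 21, of which 9 were lower, 3 were higher and the median was -0.17, while the 165 such members outside the cluster included 30 lower and 68 higher, with a median of 0.11. Raising the filter to a mean of 50 for all genes left 11 lower cluster C members and a median of -0.19. Over the 31 members, log10 mean count and log2 fold change had a Pearson correlation of 0.43 and a Spearman correlation of 0.49, a description over genes that share the same libraries. The part of level in the result was not tested. Close paralogs can also exchange reads: of the 24 cluster C members with at least 90% of their 50-base stretches found in no other gene, 14 were lower and 2 higher, with a median of -0.49. Of the 15 with no exon overlapping another gene, 10 were lower and 1 was higher, with a median of -0.51.

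The well-measured decreases in cluster C were led by ZNF675, ZNF714 and ZNF93. ZNF675, also known as TIZ, a protein that binds TRAF6, had 301, 278, 332 and 301 normalized counts in the DTHIB libraries, against 516, 511, 506 and 475 in the DMSO libraries. Every DTHIB value lay below every DMSO value (log2 fold change -0.73, SE 0.06, limma adjusted p = 2.4e-08). ZNF93, a KRAB zinc finger protein known for repressing LINE-1 elements, had 134, 133, 156 and 144 normalized counts in the DTHIB libraries, against 285, 305, 315 and 252 in the DMSO libraries. Its DTHIB values were about equal to each other and all lay under the lowest DMSO value (log2 fold change -1.02, SE 0.09, limma adjusted p = 2.41e-08). ZNF714, with no KRAB match in its longest coding sequence, had 577, 541, 607 and 552 normalized counts in the DTHIB libraries, against 877, 951, 898 and 827 in the DMSO libraries, without overlap (log2 fold change -0.64, SE 0.05, limma adjusted p = 1.33e-08).

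Several members of lower level also fell. ZNF257 had 38.6, 27.1, 39.9 and 36.9 normalized counts in the DTHIB libraries, against 91.9, 107, 71.4 and 88.2 in the DMSO libraries, and the groups were far apart (log2 fold change -1.31, SE 0.16, limma adjusted p = 2.18e-06). ZNF726 had 105, 80.3, 80.9 and 89.8 normalized counts in the DTHIB libraries, against 178, 234, 182 and 162 in the DMSO libraries, also without overlap (log2 fold change -1.07, SE 0.12, limma adjusted p = 7.51e-07). ZNF681 had 64.6, 55.2, 47.9 and 60.8 normalized counts in the DTHIB libraries, against 103, 122, 122 and 96.2 in the DMSO libraries (log2 fold change -0.95, SE 0.13, limma adjusted p = 7.94e-06), and ZNF730 had 118, 87.5, 88.9 and 78.8 normalized counts in the DTHIB libraries, against 176, 167, 141 and 153 in the DMSO libraries (log2 fold change -0.78, SE 0.12, limma adjusted p = 3.14e-05). In both, the highest DTHIB library stayed under the lowest DMSO library. The largest fitted decrease of all members, named here after its values were seen, was that of ZNF724, with 9.38, 20.8, 19.97 and 24.9 normalized counts in the DTHIB libraries, against 60.3, 69.9, 50.2 and 68.1 in the DMSO libraries (log2 fold change -1.74, SE 0.24, limma adjusted p = 8.56e-06). Only 44.1% of its 50-base stretches are found in no other gene. Its exons overlap those of another annotated gene on the same strand, so its reads may be shared with that gene or with relatives. The authors' deposited table gives -1.45 for it on the log2 scale.

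The 3 members just above the filter were also in cluster C, and counting error weighs most there. ZNF492 had 7.29, 13.5, 11.98 and 7.98 normalized counts in the DTHIB libraries, against 25.9, 17.2, 27.01 and 20.04 in the DMSO libraries (log2 fold change -1.09, SE 0.27, limma adjusted p = 0.00179). ZNF100 had 9.38, 14.6, 12.98 and 10.97 normalized counts in the DTHIB libraries, against 24.9, 14.4, 21.2 and 26.1 in the DMSO libraries (log2 fold change -0.79, SE 0.25, limma adjusted p = 0.0124), with 1 DTHIB library inside the DMSO range. ZNF66 had 2.08, 14.6, 8.99 and 17.95 normalized counts in the DTHIB libraries, against 15.3, 27.8, 33.8 and 21.04 in the DMSO libraries (log2 fold change -1.33, SE 0.44, limma adjusted p = 0.0144), and its groups overlapped.

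Other members of the cluster stood close to their DMSO level. ZNF91, a large KRAB zinc finger protein that represses SVA elements, had 691, 733, 661 and 734 normalized counts in the DTHIB libraries, against 712, 662, 684 and 668 in the DMSO libraries, and the groups overlapped (log2 fold change 0.047, SE 0.05, limma adjusted p = 0.409). ZNF254, ZNF253, ZNF431, ZNF429 and ZNF14 had log2 fold changes of -0.037, -0.022, -0.0037, -0.016 and 0.068, all close to 0, and none passed the test. The 4 members that were higher were ZNF208 at 0.61, ZNF493 at 0.19, ZNF737 at 0.18 and ZNF708 at 0.14. In the authors' deposited table, ZNF737 alone of the cluster was higher at the same adjusted p, and 16 were lower. ZNF208, which has the most fingers of all members at 36, had 27.1, 31.3, 24.97 and 21.9 normalized counts in the DTHIB libraries, against 20.1, 21.1, 11.6 and 16.03 in the DMSO libraries (log2 fold change 0.61, SE 0.23, limma adjusted p = 0.0286). Within the cluster the log2 fold changes of a member and the next along the chromosome had a Spearman correlation of 0.0096 over 30 neighbouring pairs. Called and uncalled genes were intermixed.

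**Figure D3:**
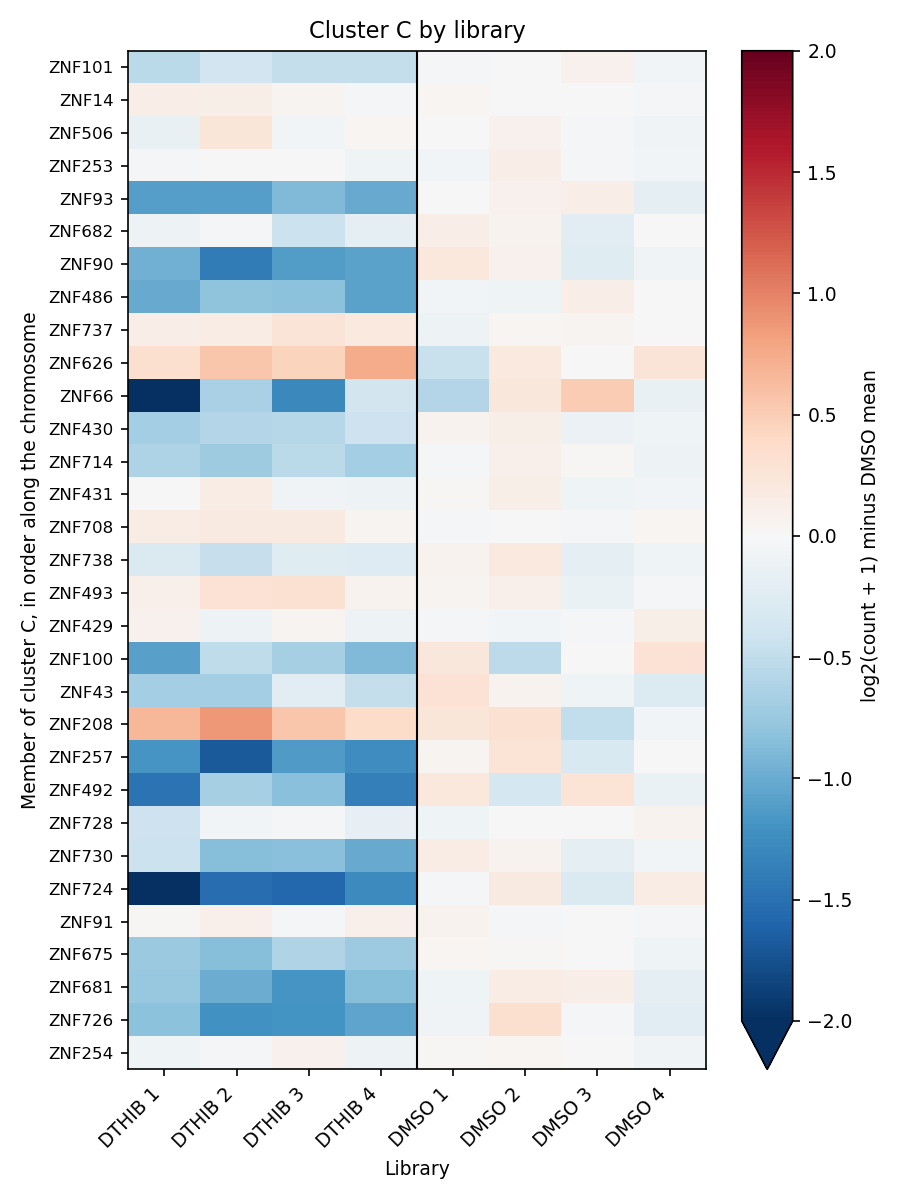
The 31 members of cluster C in chromosome order (rows) in the 8 libraries (columns, DTHIB left, DMSO right), coloured by log2(normalized count + 1) minus the mean of the DMSO libraries, with the scale ending at -2 and 2. Blue rows such as ZNF93, ZNF257 and ZNF675 are intermixed with pale rows such as ZNF91 and ZNF254.

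The promoters of cluster C are alike, so those of called and uncalled genes can be set side by side. Over the 27 cluster C members with a promoter in the RefSeq table (250 bases before to 50 after the annotated start, GRCh38.p14), pairs had a median identity of 75.6%, against 46.7% for pairs from different clusters. All 27 held the letters CCAATCAG, a form of the CCAAT box, which stand in 3.97% of all 35116 promoters of the table. The letters TTTGGCG, part of the site that E2F factors are known to bind, stood in 12 of the 27, against 1.92% of all promoters. Both strands were searched, and the motif was chosen after the fold changes had been seen, so the split below is a description. CCAATCAG and the following strings were also chosen after the fold changes had been seen. TTTCCCGC stood in only 1 of the 27, a lower gene, beside 1.63% of all promoters. The longer form TTTGGCGC stood in 4, of which 3 were lower and 1 was higher, and TTTGGCGG stood in 8, all lower.

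The whole promoters of ZNF724 at chr19:23250345-23250644 (minus strand), of ZNF91 at chr19:23395422-23395721 (minus strand) and of ZNF107 on chromosome 7 at chr7:64665883-64666182 (plus strand) are shown because the first and the last belong to genes that were lower in DTHIB cells and the ZNF91 gene did not pass the test. Capitals mark TTTGGCG.
ZNF724: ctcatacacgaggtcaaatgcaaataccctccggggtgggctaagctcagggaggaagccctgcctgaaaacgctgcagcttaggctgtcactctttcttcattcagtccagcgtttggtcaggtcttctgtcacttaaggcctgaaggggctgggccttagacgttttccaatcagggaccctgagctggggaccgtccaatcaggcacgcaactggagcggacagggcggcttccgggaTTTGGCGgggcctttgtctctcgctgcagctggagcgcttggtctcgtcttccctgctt
ZNF91: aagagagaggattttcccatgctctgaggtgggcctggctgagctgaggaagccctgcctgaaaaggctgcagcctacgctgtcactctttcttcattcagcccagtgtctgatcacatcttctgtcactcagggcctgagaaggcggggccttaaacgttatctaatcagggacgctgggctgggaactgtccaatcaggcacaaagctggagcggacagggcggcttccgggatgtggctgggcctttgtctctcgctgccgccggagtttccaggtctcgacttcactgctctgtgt
ZNF107: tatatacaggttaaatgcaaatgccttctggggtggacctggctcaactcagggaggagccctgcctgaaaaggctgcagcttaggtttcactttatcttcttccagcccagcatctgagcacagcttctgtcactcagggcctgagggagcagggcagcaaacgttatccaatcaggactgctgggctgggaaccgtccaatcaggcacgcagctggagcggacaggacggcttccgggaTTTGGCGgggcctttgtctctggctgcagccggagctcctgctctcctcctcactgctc

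A 40-base window around that place shows how the cluster C genes differ. The windows below were aligned without gaps to that of ZNF724, each is given on the strand of its gene, and capitals again mark TTTGGCG. Their places on chromosome 19 are chr19:23250378-23250417 for ZNF724 (minus strand), chr19:23914857-23914896 for ZNF726 (plus strand), chr19:23117002-23117041 for ZNF730 (plus strand), chr19:22052460-22052499 for ZNF257 (plus strand), chr19:19900917-19900956 for ZNF93 (plus strand), chr19:21020628-21020667 for ZNF430 (plus strand), chr19:20077976-20078015 for ZNF90 (plus strand), chr19:21082174-21082213 for ZNF714 (plus strand), chr19:21836172-21836211 for ZNF43 (minus strand), chr19:22634301-22634340 for ZNF492 (plus strand), chr19:23395461-23395500 for ZNF91 (minus strand), chr19:21142011-21142050 for ZNF431 (plus strand), chr19:24087164-24087203 for ZNF254 (plus strand) and chr19:22010928-22010967 for ZNF208 (minus strand). The first 7 are from genes that were lower and hold the motif.
ZNF724: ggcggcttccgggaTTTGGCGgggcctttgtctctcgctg
ZNF726: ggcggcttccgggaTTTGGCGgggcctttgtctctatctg
ZNF730: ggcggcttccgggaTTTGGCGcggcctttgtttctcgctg
ZNF257: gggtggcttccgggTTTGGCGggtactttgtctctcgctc
ZNF93: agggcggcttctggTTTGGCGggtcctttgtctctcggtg
ZNF430: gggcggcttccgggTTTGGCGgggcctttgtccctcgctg
ZNF90: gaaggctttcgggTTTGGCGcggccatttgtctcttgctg
The next 3 are from genes that were lower without it.
ZNF714: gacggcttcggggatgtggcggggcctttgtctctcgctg
ZNF43: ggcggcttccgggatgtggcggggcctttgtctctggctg
ZNF492: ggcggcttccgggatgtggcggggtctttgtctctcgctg
The last 4 are from genes that were not lower: ZNF91, ZNF431 and ZNF254 did not pass the test and ZNF208 was higher.
ZNF91: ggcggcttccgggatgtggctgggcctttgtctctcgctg
ZNF431: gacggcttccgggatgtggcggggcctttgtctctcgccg
ZNF254: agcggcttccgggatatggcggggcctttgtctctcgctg
ZNF208: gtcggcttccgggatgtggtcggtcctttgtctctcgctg

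Counting positions from 1 at the 5′ end of the window, with the base of ZNF724 first, 5 of the 9 other genes with at least 37 of 40 matching bases carry T16G, which removes the motif. Of these 5, ZNF714, ZNF43 and ZNF492 were lower, while ZNF431 and ZNF91 did not pass. ZNF91 carries G21T as well, and ZNF254 carries T16A. ZNF730, ZNF675 and ZNF726, the 3 that keep the motif, were all lower.

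Of the 12 cluster C members with TTTGGCG, 11 were lower and 1 was higher, with a median log2 fold change of -0.97 and a range of -1.74 to 0.14. Of the 15 without it, 5 were lower, 3 were higher and the median was -0.016, with a range of -1.09 to 0.61. The single member with the motif that was higher was ZNF708, with 604, 615, 613 and 563 normalized counts in the DTHIB libraries, against 535, 545, 532 and 560.1 in the DMSO libraries (log2 fold change 0.14, SE 0.05, limma adjusted p = 0.0197). Its motif begins 40 bases after the annotated start, where the others begin between 15 bases before and 20 bases after it. The 12 had a lower level than the 15, with a median over members of 94.5 normalized counts against 361. With genes of a mean under 50 left out, 6 lower members with the motif remained. Of the members with the motif at that level, only ZNF708 was not lower. The part of level in this split was not tested.

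Outside cluster C the counts differed. Of 9 members there with TTTGGCG in a promoter, 2 were lower and 4 were higher, with a median of 0.11, and of 164 without it 25 were lower and 68 were higher, with a median of 0.12. Among tested genes that are no members, the 393 with the motif included 205 that were lower and 95 that were higher, a median of -0.13, while the 11052 without it had 4252 lower, 3288 higher and a median of -0.038.

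A run of 7 related zinc finger genes on chromosome 7, chosen after its values were seen, had 6 lower genes and 1 higher gene, with a median of -0.67. ZNF107, at 64666083 to 64711582 (GRCh38), had 1113, 1053, 1276 and 1025 normalized counts in the DTHIB libraries, against 2371, 2367, 2154 and 2098 in the DMSO libraries, with no overlap (log2 fold change -1.01, SE 0.06, limma adjusted p = 1.57e-10). ZNF273 had 362, 355, 388 and 379 normalized counts in the DTHIB libraries, against 735, 789, 735 and 692 in the DMSO libraries (log2 fold change -0.99, SE 0.05, limma adjusted p = 6.93e-11). All 4 genes of the run with TTTGGCG were lower, with log2 fold changes between -1.01 and -0.67. Of the 3 without it, ZNF736 at -0.32 and ZNF138 at -0.43 were lower and ZNF117 at 0.95 was higher. The letters CCAATCAG stood in promoters of 6 genes of the run, all lower, and not in that of ZNF117. Of the 4 other zinc finger genes outside chromosome 19 with TTTGGCG, ZNF267 at -0.62 was lower. ZNF131, ZNF778 and ZNF892 did not pass, at -0.0067, -0.021 and -0.096. Of 184 zinc finger genes outside chromosome 19 without it, 42 were lower and 74 higher, with a median of 0.070 and a range of -1.47 to 1.21. With CCAATCAG, 13 of 25 were lower and 5 higher, and without CCAATCAG 34 of 167 were lower and 69 higher. These counts include the run. On chromosome 1, 10 of 18 zinc finger genes (55.6%) were lower and 3 (16.7%) higher, beside 33.7% and 31.0% of all tested genes.

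**Figure D4:**
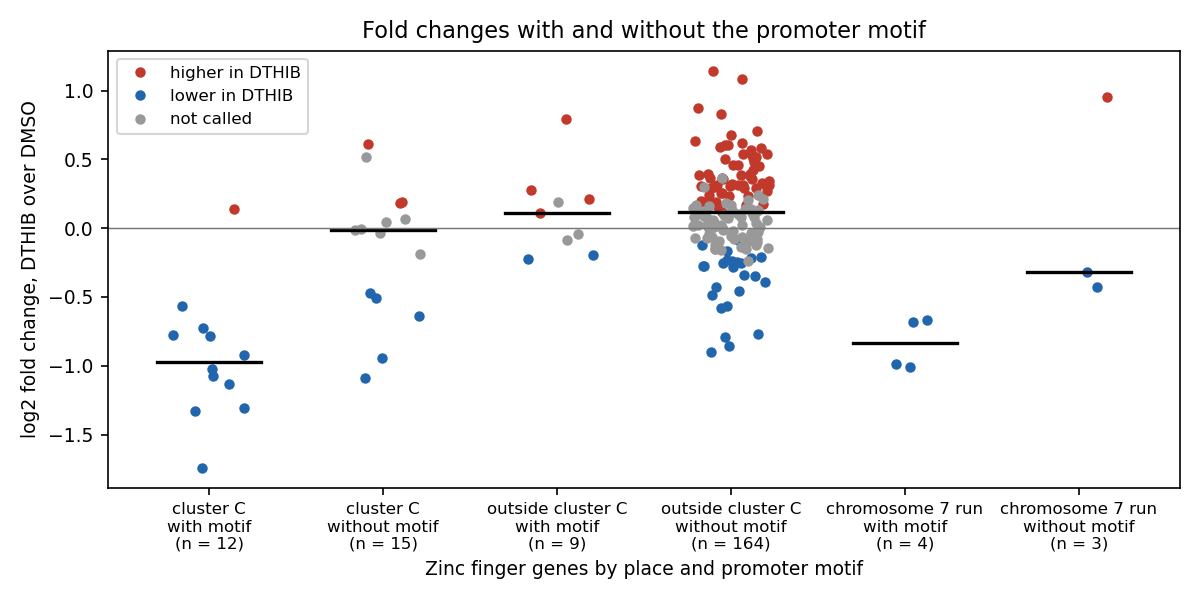
Log2 fold change, DTHIB over DMSO (y axis), of zinc finger genes with and without the promoter motif, for cluster C, the members outside it and the chromosome 7 run; each point is a gene and black lines are medians. The medians are -0.97 with and -0.016 without the motif in cluster C, and 0.11 and 0.12 outside it.

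Genes of the E2F family moved in the same libraries. Of 8 family members, 6 were lower in DTHIB cells and 1 was higher, beside 33.7% lower and 31.0% higher of all tested genes, and the list's median was -1.002 on the log2 scale. E2F1 averaged 990.0 ± 25.3 normalized counts in DTHIB cells and 3464 ± 146 in DMSO cells (SD, n = 4 each), E2F4 averaged 1731 ± 32.9 in DTHIB cells and 1702 ± 15.4 in DMSO cells, and E2F5 averaged 573 ± 33.4 in DTHIB cells and 427 ± 7.27 in DMSO cells. E2F2, E2F3, E2F6, E2F7 and E2F8 were lower as well, at log2 fold changes of -1.63, -0.37, -0.34, -1.81 and -1.80. The part of these factors in the zinc finger changes was not tested. The paired heat shock factor units GAANNTTC stood in 5 of the 27 cluster C promoters, beside 6.77% of all promoters, and of those 5 genes 3 were lower and 1 was higher.

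Cluster H, at the end of the long arm, held the largest number of increases, being also the largest cluster; by share, its 53.4% higher stood below the 57.1% of cluster A. Of its 58 members, 31 were higher in DTHIB cells, 7 were lower and 20 did not pass, and the cluster's median log2 fold change was 0.19. The DTHIB values lay above all DMSO values in 27 members and below them in 8. Of the 22 other protein-coding genes within the same span, 6 were higher and 6 lower, with a median of -0.020. With noncoding genes and pseudogenes counted too, 19 of 50 other genes were higher and 7 lower, with a median of 0.16, near that of the members. ZNF419, a KRAB zinc finger gene known as the source of a minor histocompatibility antigen in renal cancer, had 511, 593, 552 and 533 normalized counts in the DTHIB libraries, against 312, 275, 315 and 291 in the DMSO libraries. Its DTHIB values were all well above the DMSO values (log2 fold change 0.87, SE 0.06, limma adjusted p = 3.42e-09). Its neighbour ZNF773 had 306, 257, 258 and 271 normalized counts in the DTHIB libraries, against 180.1, 182, 183 and 178 in the DMSO libraries (log2 fold change 0.59, SE 0.08, limma adjusted p = 3.4e-06), and both overlap an exon of the same further annotated gene. ZNF580, a short protein with 3 fingers and no KRAB match, had 956, 1135, 1091 and 1082 normalized counts in the DTHIB libraries, against 639.8, 662, 657 and 695 in the DMSO libraries (log2 fold change 0.68, SE 0.05, limma adjusted p = 5.26e-09), and its exons overlap those of CCDC106 and ZNF581. ZNF837 had 82.3, 78.2, 70.9 and 85.8 normalized counts in the DTHIB libraries, against 39.3, 43.1, 43.4 and 57.1 in the DMSO libraries (log2 fold change 0.79, SE 0.14, limma adjusted p = 0.000139).

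The same cluster held 1 of the larger decreases. ZNF530 had 91.7, 147, 125 and 101 normalized counts in the DTHIB libraries, against 229, 225, 210.3 and 192 in the DMSO libraries, with the groups apart (log2 fold change -0.90, SE 0.13, limma adjusted p = 7.94e-06). The letters CCGGAAGT, an ETS factor site, stood in 26 of the 53 cluster H promoters in the table, beside 4.14% of all promoters, and of these 26 genes 12 were higher with a median of 0.16, while of the 27 without them 15 were higher with a median of 0.17. ZNF135, named after its values were seen, had 48.97, 43.8, 43.9 and 44.9 normalized counts in the DTHIB libraries, against 13.4, 32.5, 20.3 and 21.04 in the DMSO libraries (log2 fold change 1.09, SE 0.22, limma adjusted p = 0.000405). Along with ZNF442 of cluster B at 1.15, it made up the 2 members that were at least 2-fold higher.

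**Figure D5:**
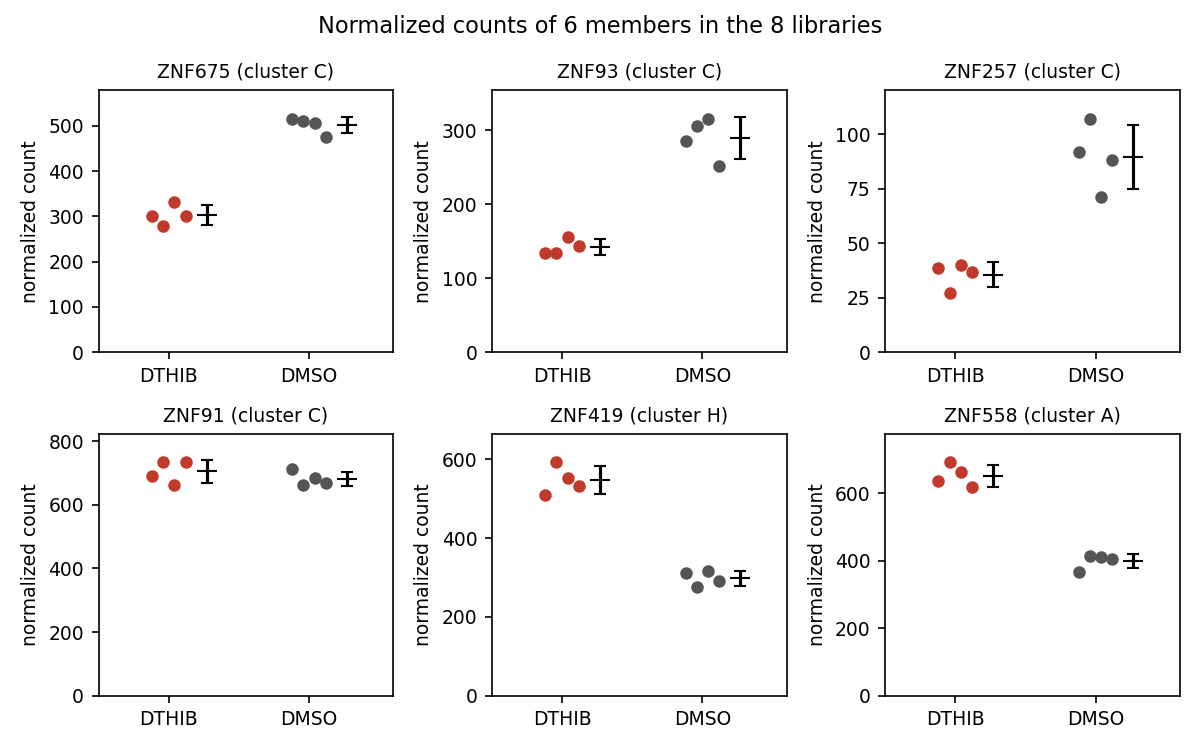
Normalized counts (y axes, from 0) of 6 members in the 4 DTHIB libraries (red, left) and the 4 DMSO libraries (grey, right), with black bars for the mean and SD. ZNF675, ZNF93 and ZNF257 are lower in every DTHIB library, ZNF91 overlaps, and ZNF419 and ZNF558 are higher in every DTHIB library.

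The clusters of the short arm outside C, A and B, were small. The shares that were higher were 57.1% in A and 18.8% in B, beside 31.0% of all tested genes. The shares that were lower were 7.14% and 25%, beside 33.7%. In cluster A, 8 of 14 members were higher and 1 was lower, with a median of 0.11. Of the other protein-coding genes between them, 16 of 32 were higher and 7 were lower. ZNF558, a KRAB zinc finger protein reported to repress the gene SPATA18, had 635, 692, 663 and 617 normalized counts in the DTHIB libraries, against 368, 412, 410.0 and 404 in the DMSO libraries (log2 fold change 0.71, SE 0.06, limma adjusted p = 8.56e-09). ZNF121 had 2851, 3156, 3000.1 and 2982 normalized counts in the DTHIB libraries, against 2260.2, 2233, 2046 and 2191 in the DMSO libraries, also above every DMSO library (log2 fold change 0.46, SE 0.04, limma adjusted p = 1.76e-08). In cluster B, 3 of 16 members were higher and 4 were lower. ZNF823 had 123, 128, 172 and 142 normalized counts in the DTHIB libraries, against 247, 258, 233 and 220.4 in the DMSO libraries (log2 fold change -0.77, SE 0.10, limma adjusted p = 4.5e-06). ZNF443 had 92.7, 96.9, 126 and 92.8 normalized counts in the DTHIB libraries, against 184, 197, 163 and 161 in the DMSO libraries (log2 fold change -0.79, SE 0.11, limma adjusted p = 1.14e-05). Only 59.8% of its 50-base stretches are found in no other gene, and its exons overlap those of 2 other annotated genes on the same strand.

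On the long arm, the share of members that were higher was 40.7% in cluster E, 30.4% in cluster F and 28.2% in cluster G, beside the 31.0% of all tested genes. In cluster D, 2 of 5 members were higher: ZNF181 at 0.38 and ZNF302 at 0.30. In cluster E, 11 of 27 were higher and 3 were lower, with a median of 0.14. ZNF383 had 132, 147, 174 and 143 normalized counts in the DTHIB libraries, against 110.1, 106, 89.7 and 89.2 in the DMSO libraries (log2 fold change 0.59, SE 0.11, limma adjusted p = 0.000224). Its decreases were led by ZNF850, with 249, 215, 195 and 195 normalized counts in the DTHIB libraries, against 447, 425, 373 and 311 in the DMSO libraries (log2 fold change -0.86, SE 0.10, limma adjusted p = 1.73e-06), and ZNF829, at -0.46. The third, ZNF146, is described with the members of high level below.

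In cluster F, 7 of 23 members were higher and 3 were lower, with a median of 0.17. ZNF226 had 493, 517, 469 and 489.7 normalized counts in the DTHIB libraries, against 383, 374, 366 and 343 in the DMSO libraries (log2 fold change 0.43, SE 0.06, limma adjusted p = 5.07e-06). ZNF224, a KRAB zinc finger protein known to repress the aldolase A gene, had 161, 169, 188 and 183 normalized counts in the DTHIB libraries, against 124, 122, 122 and 121 in the DMSO libraries (log2 fold change 0.52, SE 0.09, limma adjusted p = 6.28e-05). ZNF284 was at 0.62, with 56.1% of its 50-base stretches found in no other gene. In cluster G, 11 of 39 members were higher and 12 were lower, with a median of -0.027 that turned to 0.0082 after quantile normalization and to 0.091 with a length and GC trend removed. ZNF841 had 576, 715, 592 and 588 normalized counts in the DTHIB libraries, against 429, 400.0, 400.4 and 431 in the DMSO libraries (log2 fold change 0.57, SE 0.07, limma adjusted p = 9.92e-07), and ZNF83 had 1634, 1824, 1633 and 1572 normalized counts in the DTHIB libraries, against 1173, 1290.0, 1059 and 1173 in the DMSO libraries (log2 fold change 0.51, SE 0.06, limma adjusted p = 4.37e-07). Outside the clusters, ZNF333 at 0.61 and ZNF554 at 0.60 were higher.

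Per exonic length, the members were mostly low. Their median was 8.32 TPM in DTHIB cells and 7.83 TPM in DMSO cells, a level per exonic length computed from the normalized counts and scaled to the same total in each library. The 5 at the highest level over all libraries were ZNF146, ZNF358, ZNF121, ZNF787 and ZNF524, and none of them has a KRAB match. ZNF146 stood at 209 TPM in DTHIB cells and 216 TPM in DMSO cells, and ZNF358 at 72.5 TPM in DTHIB cells and 62.6 TPM in DMSO cells. ZNF146, a protein made of little else than fingers, had 6132, 5799, 6349 and 5857 normalized counts in the DTHIB libraries, against 6514, 6433, 6449 and 6169 in the DMSO libraries, with overlapping groups (log2 fold change -0.084, SE 0.03, limma adjusted p = 0.0329). Its call was lost with edgeR at an adjusted p of 0.0542 and with DESeq2 at 0.0624, and without DMSO replicate 1, 2 or 3 or DTHIB replicate 2 or 4 its limma adjusted p lay between 0.0660 and 0.102. Its log2 fold change was 0.040 with the length and GC trend removed. ZNF358 was higher at 0.18 (limma adjusted p = 0.00878) but at 0.023 with that trend removed (limma adjusted p = 0.723). ZNF524 was higher at 0.38, and ZNF787 was at 0.08, which did not pass but came under the threshold without DMSO replicate 3 or DTHIB replicate 2, at 0.12 in both fits.

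By protein features, the medians lay close to each other and the shares called varied. Of the 191 with a KRAB match, 69 were higher and 44 were lower (23.0%) with a median of 0.091, and of the 33 without one, 13 were higher and 5 lower (15.2%) with a median of 0.080. In 5 classes by number of fingers, the share that was higher ran from 28.6% (10 to 12 fingers) to 44.4% (6 to 9), and the lower ones from 6 of 43 (17 or more) to 16 of 56 (10 to 12), with medians of 0.028 to 0.14. The differences between these classes were not tested. The number of fingers, from 0 to 36 with a median of 12, had a Spearman correlation of -0.015 with the log2 fold change over the 224 genes, and GC content of the transcript had 0.20. These are descriptions across genes, which are not independent.

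Of 10 members picked for known roles, 3 were lower, among them ZNF93 and ZNF146 described above, and none was higher, a share of lower genes near the 33.7% of all tested genes. ZNF274, which binds the finger-coding ends of zinc finger genes and brings SETDB1 there, had 1153, 1227, 1149.5 and 1158 normalized counts in the DTHIB libraries, against 1150.2, 1145, 1162 and 1115 in the DMSO libraries (log2 fold change 0.036, SE 0.04, limma adjusted p = 0.42). ZNF331, an imprinted gene, had 671, 713, 697 and 642 normalized counts in the DTHIB libraries, against 826, 834, 706 and 787 in the DMSO libraries and was lower (log2 fold change -0.21, SE 0.06, limma adjusted p = 0.0035), with its groups overlapping by 1 DMSO library. ZNF420, a regulator of p53 also called APAK, was at -0.12, and ZNF304, ZNF382, ZNF649 and ZNF808 were at 0.16, 0.039, -0.17 and 0.023. None of these 5 passed the test with all libraries. ZNF304 passed without DMSO replicate 1 or 2, at 0.22 and 0.19, and ZNF420 and ZNF649 passed without DMSO replicate 4, at -0.15 and -0.23. ZNF808 is known for keeping transposable elements silent in the developing pancreas.

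Transcripts on a list that joins KRAB corepressors with general chromatin silencing and DNA methylation genes were mostly lower. Of 31 tested genes of this list, 21 were lower in DTHIB cells, 5 were higher and 5 did not pass, with a median log2 fold change of -0.21, beside 33.7% lower of all tested genes. TRIM28, the direct partner of the KRAB domain, averaged 10107 ± 261 normalized counts in DTHIB cells and 13065 ± 296 in DMSO cells (SD, n = 4 each, limma adjusted p = 4.98e-09). SETDB1, its histone methyltransferase, averaged 1612 ± 79.0 in DTHIB cells and 1299 ± 58.6 in DMSO cells and was higher (limma adjusted p = 7.29e-06). The HP1 genes CBX1, CBX3 and CBX5 were lower by log2 fold changes of -0.51, -0.43 and -0.53.

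The 4 genes of that list with the smallest adjusted p were linked to DNA methylation, histone methylation and chromatin assembly, rather than being direct partners of the KRAB domain. UHRF1, which guides DNA methylation to copied strands, averaged 656 ± 37.4 normalized counts in DTHIB cells and 1740.5 ± 82.5 in DMSO cells (SD, n = 4 each, log2 fold change -1.41, limma adjusted p = 1.18e-13). DNMT1, the maintenance DNA methyltransferase, was at -0.98, SUV39H1, a histone H3 lysine methyltransferase, at -1.38, and RBBP7, a histone-binding subunit, at -0.82. The part of these genes in the zinc finger changes was not tested.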

How the data were processed

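RNA-seq of 8 libraries (4 DTHIB, 4 DMSO) was analysed from a deposited table of DESeq2-normalized counts, a signal made by the authors by dividing gene read counts by size factors. Per the submitters' processing notes, GRCh38 was used with HISAT2 (2.1.0) after Trimmomatic (0.36.5), and further named tools are featureCounts (1.6.3), StringTie (1.3.4) and DESeq2 (2.11.40.2), with no roles stated; the labels name neither strand setting nor annotation. The authors' deposited comparison table, which holds log2 fold changes, a Wald statistic score, and raw and adjusted p-values from DESeq2, was used only where it is named; 100.0% of its signs over tested genes, to the nearest 0.1%, were those of DTHIB minus DMSO.

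Of the normalized values, 100.0% were whole multiples of 1 read within 0.01, so read totals could be recovered; counting error alone sets a floor on precision at low counts. Genes with a mean of at least 10 were fitted with limma 3.58.1 (R 4.3.3) on log2(normalized count + 1), two-sided, with Benjamini-Hochberg adjustment over 17194 genes and a threshold of 0.05; fold changes on this scale understate changes of low genes. The fit was checked on simulated data. Positions and exonic lengths came from GENCODE release 29, promoters from RefSeq GRCh38.p14 (200 of 224 members matched), and KRAB matches (at least 15 of 32 consensus residues) and finger counts from the longest coding sequence. Alternatives were edgeR 4.0.16 and DESeq2 1.42.0 on recovered reads, other pseudocounts (0.5, 5), filters (none, 50), scalings (TMM, quantile), a replicate block, leaving out each library, removing a length and GC trend, and other gaps between clusters (0.5 and 2 Mb). The members and lists were chosen with earlier results of these data known. Named genes were the 10 largest rises and falls among called members with a mean of at least 50, the 5 of highest level, the 2 of smallest adjusted p in each cluster, 10 with known roles, those next to the filter and the 4 of smallest adjusted p in the list of corepressor and silencing genes. Others are said to be chosen after their values were seen.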

Additional observations from a re-analysis of the deposited data

Results flagged for a closer look

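In 116 groups of 4 libraries, 94 for the 47 named genes in both arms and 22 for 11 library medians (the 8 clusters, all members, members outside cluster C and all tested genes), 4 had 1 library far from the other 3 by Dixon's test at the 95% level, where chance alone flags about 1 group in 20. ZNF841 had 715 normalized counts in DTHIB replicate 2, against 576 to 592 in the other DTHIB libraries. ZNF443 had 126 normalized counts in DTHIB replicate 3, against 92.7 to 96.9 in the others of that arm. ZNF224 had 124 normalized counts in DMSO replicate 1, against 121 to 122 in the others. ZNF274 had 1227 normalized counts in DTHIB replicate 2, against 1149.5 to 1158 in the others.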

How the results depend on the processing

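The 82 higher and 49 lower members became 85 and 46 with edgeR, 73 and 44 with DESeq2, 86 and 48 with TMM, 76 and 50 after quantile normalization and 106 and 43 with the length and GC trend removed. For TMM, quantile normalization, the removed trend and the replicate block, the shares over all tested genes are not given here. Those counts therefore cannot tell a shift of the members from a shift of all genes. Among members with no overlapping gene, 23 were higher and 12 lower of 65. The members' median of 0.086 became 0.10 with TMM, edgeR and DESeq2, 0.15 with the length and GC trend removed, and ranged from 0.069 to 0.095 over the fits that left out 1 library. The 17 lower members of cluster C became 11 with a mean of at least 50 (median -0.19) and 11 with a gap of 0.5 Mb (22 members, median -0.25), and its median was -0.42 with the length and GC trend removed and between -0.49 and -0.41 with 1 library left out. In cluster H a gap of 0.5 Mb left 20 higher members, and a gap of 2 Mb, which joins cluster G to it, gave a median of 0.12. Lower cluster C members with TTTGGCG numbered 6 with a mean of at least 50, where ZNF708 was the only other member with it. The median of cluster G turned to 0.0082 (quantile) and 0.091 (length and GC). With that trend removed ZNF146 was at 0.040, ZNF787 at -0.056, ZNF274 at -0.0057 and ZNF420 at 0.011. With 1 library left out, ZNF808 ranged from -0.030 to 0.074, below 0 without replicate 2 of either arm. The cause of these moves was not tested, except that stricter filters and gaps leave fewer members. Of 47 named genes, 39 kept direction and side of the threshold under every alternative. Same-numbered libraries of the 2 arms had correlations of deviations of -0.072, 0.011, 0.014 and 0.0018, so no effect shared by them was seen. These values cannot show whether such libraries were set up together. With the replicate block 79 members were higher and 49 lower, 18 of the lower ones in cluster C. Depth limits members near the filter, where a library held as few as 2 reads.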
